A study of Mus musculus with 12 samples.

Results

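Leukemia inhibitory factor (LIF) is the cytokine that keeps mouse embryonic stem cells (ESCs) in self-renewal in culture, and 10 genes that carry its signal were followed here from ESCs to epiblast-like cells (EpiLCs). They were Lifr and Il6st (the receptor), Jak1 (the kinase), Stat3 (the transcription factor), Socs3 (the feedback inhibitor), Gab1 and Ptpn11 (the branch towards ERK), and Pim1, Pim3 and Junb (genes switched on by the signal). The 10 genes were taken by symbol from a table of 22462 genes, all 10 were found, and all 10 passed the filter on low counts that left 11750 genes for testing. None of the 10 shares counted bases with another gene.

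LIF binds the receptor subunit LIFR, which pairs with gp130 (the product of Il6st), the subunit shared by cytokines of the interleukin 6 family. The JAK kinases bound to the receptor then phosphorylate STAT3, which enters the nucleus and activates its targets, and Socs3 is both a target and a brake, since its protein binds gp130 and JAK and shuts the signal down. Gab1 and SHP2 (the product of Ptpn11) link the same receptor to Ras and ERK. In naive pluripotent cells STAT3 sustains transcription factors of the naive state such as Klf4 and Tfcp2l1.

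All 12 libraries came from mouse cells, which per the methods of the study were 1 line, V6.5 ESCs that carry a miR-290 mCherry and a miR-302 GFP reporter. ESCs were kept in 15% serum with LIF and 2i (the MEK inhibitor PD0325901 and the GSK3 inhibitor CHIR99021), and EpiLCs were ESCs from which LIF and 2i were taken away 24 hours after plating and which were collected about 56 hours after that, so that withdrawal of LIF, withdrawal of the inhibitors and the change of state cannot be told apart. Each state gave 3 total RNA libraries (read here as mRNA level) and 3 libraries of ribosome protected fragments (RPFs, the stretches of mRNA that ribosomes shield from nuclease), 4 groups of 3 in all. The labels number the libraries but do not say whether they were separate cultures. The study calls its replicates biological without describing how they were made. P-values therefore measure the spread between these samples, and how much of it is technical cannot be told.

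Levels are CPM (reads of a gene relative to the TMM-scaled depth of its library), and levels of different genes are compared per kilobase of counted coding sequence. The depth of the total RNA libraries was 11491044 to 13477432 reads for ESCs and 6188838 to 14655015 for EpiLCs. The RPF libraries held 4777262 to 11359352 reads for ESCs and 2681439 to 5413144 for EpiLCs, so that footprints of scarce genes in EpiLCs rest on the fewest reads. The state labels were checked on markers. The summed level of 5 naive markers in total RNA went from 1037 to 1157 CPM in ESCs to 42.7 to 70.9 CPM in EpiLCs, and that of 4 EpiLC markers from 106 to 196 CPM to 1105 to 1188 CPM. Pou5f1 and Sox2, listed as markers of both states, were lower in EpiLCs. Their sum was 1680 to 1848 CPM in ESC and 918 to 1077 CPM in EpiLC total RNA. The mean of Pou5f1 went from 1553 to 984 CPM and that of Sox2 from 191 to 28.3 CPM. Markers of other cells were scarce, but some of their sums differed between the states. The 5 fibroblast markers summed to 1.93 to 2.22 CPM in ESC and 8.80 to 11.8 CPM in EpiLC total RNA (6.14 to 7.14 and 31.3 to 34.3 CPM in RPF, with Postn at 0 reads). The 3 mesoderm markers summed to 0.0855 to 0.925 and 1.60 to 4.73 CPM. The 3 neural markers summed to 9.67 to 14.9 and 20.6 to 24.0 CPM. Of these, the mean of Pax6 went from 0.418 to 8.63 CPM and that of Sox1 from 10.96 to 11.6 CPM. The 5 markers of extraembryonic endoderm overlapped between the states, at 2.57 to 3.11 and 2.63 to 3.36 CPM (Afp at 0 reads). The part of these markers in the changes below was not tested. In these bulk libraries fewer cells of a type and less RNA per cell cannot be told apart.

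STAT3 binds DNA at the palindrome TTCCNGGAA, and the promoters of all 10 genes (13 RefSeq windows on GRCm38.p6 from 250 bases before to 50 bases after an annotated start) were searched for it and for the wider pattern TTCNNNGAA, of which it is a case. Both patterns read alike on the 2 strands. No window of the 10 genes held the first pattern, which 1.15% of all 32851 promoter windows held. The wider pattern stood in the windows of 2 of the 10 genes, against 9.55% of 27025 genes. These 2 stretches, the only matches in the windows, are shown on the coding strand of each gene with the 9 matching bases in capitals. The plan was to print only stretches with the first pattern, so that these were chosen for print after the search.
Socs3 (GRCm38.p6, chr11:117969502-117969530, minus strand): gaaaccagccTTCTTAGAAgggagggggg
Gab1 (GRCm38.p6, chr8:80880473-80880501, minus strand): ccggaggagtTTCAGAGAAagtctgggct
The Socs3 match began 154 bases before the annotated start. The Gab1 match began 28 bases after one annotated start and 12 bases before another. A match of letters is no evidence of binding, and the lack of a match in a window of 300 bases says nothing of STAT3 elsewhere at a gene.

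Over the 10 genes, the receptor, STAT3 and the inhibitor were lower in EpiLCs while Jak1 was not called, Gab1 was slightly lower, and Ptpn11, Pim1, Pim3 and Junb were higher, though of these only Junb passed the fold limit. In total RNA 4 of the 10 fell (Lifr, Il6st, Stat3 and Socs3) and 1 rose (Junb) at an adjusted p below 0.05 and a log2 change beyond 1, against 9.7% of all tested genes that fell and 14.6% that rose by this rule. In RPF the counts were again 4 lower and 1 higher, against 10.6% lower and 15.4% higher over all genes. By the adjusted p alone, 5 were lower and 4 higher in both assays, with 30.7% and 34.6% of all genes in total RNA and 28.7% and 31.1% in RPF. The median change of the 10 was -0.11 in total RNA and -0.15 in RPF on the log2 scale, beside 0.03 and 0.01 over all genes. The 3 libraries of a state did not overlap with the 3 of the other for 10 of 10 genes in total RNA and 9 of 10 in RPF, but 70.3% and 63.1% of all tested genes were likewise apart.

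**Figure D1:**
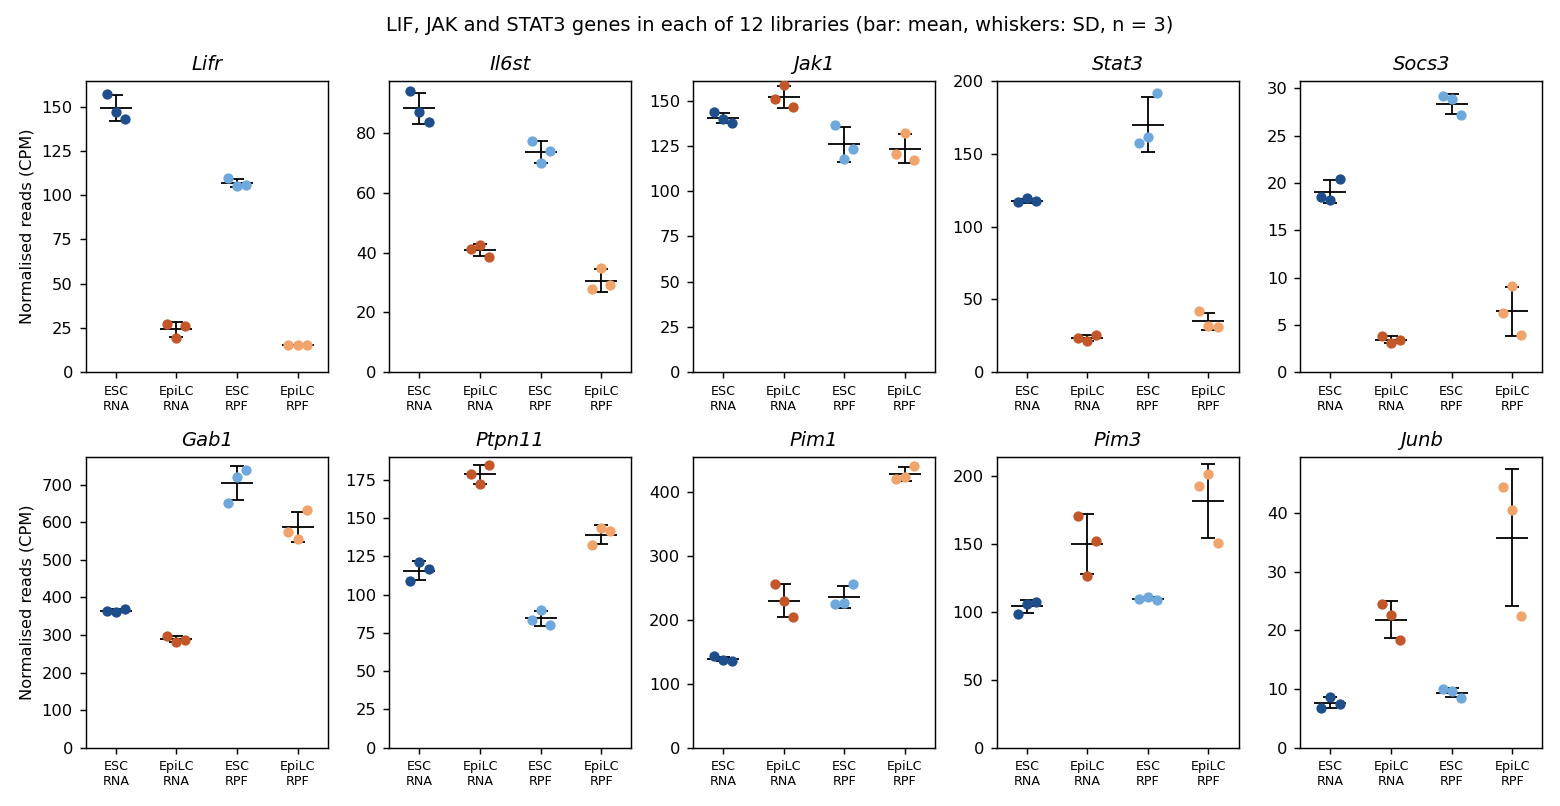
Level of each of the 10 genes in every library (y axis, TMM-scaled CPM, from 0) in ESC and EpiLC total RNA and RPF (x axis), 1 point per library, with the mean as a bar and the SD as whiskers (n = 3). Lifr, Il6st, Stat3 and Socs3 are lower in all EpiLC libraries of both assays, Junb is higher, and Jak1 footprints overlap between the states.

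Lifr, the subunit that gives the receptor its specificity for LIF, had the largest fall of the 10. The gene (ENSMUSG00000054263.11) was counted over 3242 coding bases in 20 exon blocks between 7154454 and 7191169 on the plus strand of chromosome 15 (mm10, as are all coordinates of counted genes). In total RNA it stood at 158, 147 and 143 CPM in ESCs and at 27.4, 19.0 and 25.8 CPM in EpiLCs. Its footprints were 109.6, 105 and 106 CPM in ESCs and 15.1, 15.2 and 15.4 CPM in EpiLCs. Every EpiLC library lay far below every ESC library of its assay. The EpiLC footprints hardly spread, but they are 73, 40 and 82 reads, so that their closeness is no measure of precision. Lifr mRNA fell by 2.59 ± 0.10 on the log2 scale (SE; 6.02-fold lower, adjusted p = 6.11e-17, limma), and its footprints fell by 2.80 ± 0.17 (6.99-fold lower, adjusted p = 2.71e-13, limma).

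Il6st, which encodes the shared subunit gp130, fell less far. Its 2713 counted bases lie in 15 blocks at 112475091 to 112504445 on the plus strand of chromosome 13 (ENSMUSG00000021756.12). Total RNA held 94.1, 87.0 and 83.7 CPM in ESCs and 41.3, 42.5 and 38.6 CPM in EpiLCs. RPF held 77.4, 70.0 and 74.1 CPM in ESCs and 27.7, 34.9 and 29.0 CPM in EpiLCs. The groups were apart in both assays. The mRNA fell by 1.12 ± 0.08 (2.17-fold lower, adjusted p = 1.87e-11, limma) and the footprints fell by 1.32 ± 0.12 (2.49-fold lower, adjusted p = 1.30e-09, limma). The 95% interval of the mRNA change was -1.29 to -0.94 for Il6st and -2.80 to -2.38 for Lifr, and the difference between the 2 genes was not itself tested.

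With unequal falls, the balance of the 2 subunits turned over. Per kilobase, Lifr made up 58.3% to 58.9% of the sum of Lifr and Il6st in ESC total RNA and 27.2% to 35.9% in EpiLC total RNA. In RPF its share was 54.2% to 55.8% in ESCs and 26.7% to 31.3% in EpiLCs. Lifr was thus the more abundant of the 2 in every ESC library and the less abundant in every EpiLC library. The 2 together went from 78.6 ± 4.23 to 22.5 ± 1.10 CPM per kilobase in total RNA (SD, n = 3).

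Jak1, the tyrosine kinase that gp130 chiefly relies on, had the smallest changes of the 10 in both assays. The gene (ENSMUSG00000028530.14; chromosome 4, 101153495 to 101191634, minus strand; 3417 counted bases in 23 blocks) was at 144, 140.2 and 138 CPM in ESC total RNA and at 151, 159 and 147 CPM in EpiLC total RNA. Footprints were 136, 118 and 123 CPM in ESCs and 121, 132 and 117 CPM in EpiLCs. The total RNA libraries of the states did not overlap by a narrow margin, and the RPF libraries did. The mRNA change was 0.11 ± 0.06 with a 95% interval of -0.03 to 0.24 (adjusted p = 0.146, limma), and the RPF change was -0.05 ± 0.08 with an interval of -0.22 to 0.12 (adjusted p = 0.628, limma). A log2 change beyond 0.24 in either direction lies outside both intervals.

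The other JAK kinases went different ways, so that the part of Jak1 in the family grew. Jak1 made up 48.3% to 49.9% of the 4 JAKs per kilobase in ESC total RNA and 59.0% to 61.1% in EpiLC total RNA. In RPF its share was 59.7% to 66.9% in ESCs and 78.0% to 82.0% in EpiLCs. The sum of the 4 JAKs went from 83.8 ± 1.71 to 73.8 ± 1.90 CPM per kilobase in total RNA and from 58.0 ± 1.55 to 45.3 ± 1.91 in RPF (SD, n = 3; descriptions without a test). Jak2, the kinase best known from erythropoietin and growth hormone receptors, was higher in EpiLCs by 0.74 ± 0.09 in mRNA (adjusted p = 6.27e-08) and 0.80 ± 0.23 in RPF (adjusted p = 0.00392, limma), below the fold limit in both. Jak2 was at 33.7 ± 0.185 CPM in ESC and 56.9 ± 2.62 CPM in EpiLC total RNA, and its footprints were 6.82 ± 1.44 and 10.97 ± 1.53 CPM. Jak3 and Tyk2, named here after their values were seen, fell in both assays, Jak3 by 2.24 ± 0.18 in mRNA and 2.06 ± 0.27 in RPF, and Tyk2 by 1.03 ± 0.09 and 1.31 ± 0.18 (adjusted p = 5.06e-11, 4.97e-07, 3.70e-10 and 1.08e-06, limma).

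Stat3, the transcription factor through which LIF acts on the naive state, fell in both assays. Its 2268 counted bases lie in 23 blocks on the minus strand of chromosome 11 (ENSMUSG00000004040.16, 100888705 to 100911316). In total RNA the ESC libraries were at 117, 119 and 118 CPM and the EpiLC libraries at 23.5, 21.1 and 25.4 CPM. In RPF they were at 157, 162 and 192 CPM and at 41.8, 31.9 and 30.9 CPM. The lowest ESC library was more than 3 times the highest EpiLC library in each assay. Stat3 mRNA fell by 2.33 ± 0.11 (5.01-fold lower, adjusted p = 2.54e-15, limma) and its footprints fell by 2.29 ± 0.13 (4.90-fold lower, adjusted p = 1.03e-13, limma).

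Among the 7 STAT genes, Stat3 held the largest share in ESCs and a smaller share in EpiLCs than in ESCs. Per kilobase it made up 50.8% to 53.3% of the STATs in ESC total RNA and 20.6% to 24.5% in EpiLC total RNA. Its share in RPF was 48.5% to 53.2% in ESCs and 17.3% to 22.8% in EpiLCs. In EpiLC total RNA the share of Stat2 was 22.6% to 29.5% and that of Stat5b, a STAT of growth hormone and prolactin signals, 20.8% to 23.9%, ranges that overlap with that of Stat3. In EpiLC RPF Stat2 held 26.8% to 32.4%, above Stat3 in range, and Stat5b 11.9% to 14.8%, below it. The sum of the STATs went from 100.1 ± 1.34 to 44.6 ± 1.38 CPM per kilobase in total RNA and from 148 ± 10.4 to 76.6 ± 5.91 in RPF (SD, n = 3). Stat5b was higher in EpiLCs by 0.82 ± 0.12 in mRNA (adjusted p = 1.91e-06) and 0.96 ± 0.16 in RPF (adjusted p = 1.53e-05, limma), short of the fold limit. Stat2, named after its values were seen, was lower by 0.67 ± 0.10 in mRNA (adjusted p = 2.57e-06) with an RPF change of -0.13 ± 0.11 (adjusted p = 0.317, limma).

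**Figure D2:**
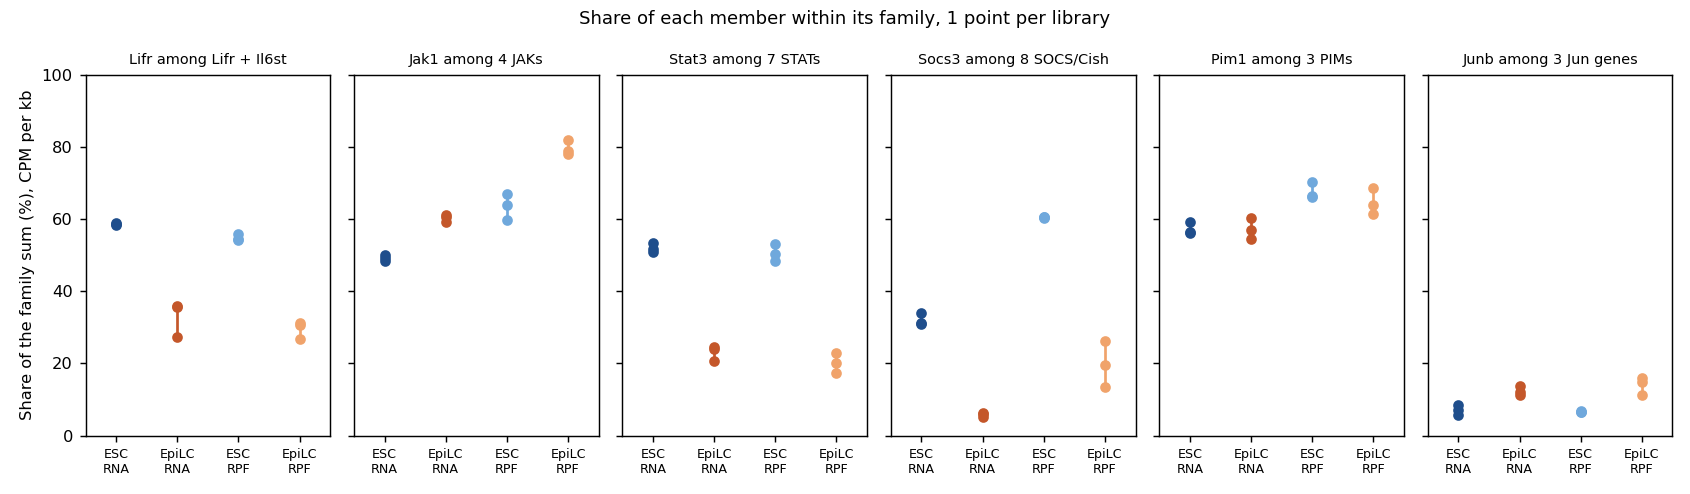
Share of Lifr, Jak1, Stat3, Socs3, Pim1 and Junb in the summed level of their families (y axis, percent of CPM per kilobase) in ESC and EpiLC total RNA and RPF (x axis), 1 point per library with a line over their range. Stat3 goes from 50.8% to 53.3% of STAT mRNA in ESCs to 20.6% to 24.5% in EpiLCs, and Jak1 from 48.3% to 49.9% of JAK mRNA to 59.0% to 61.1%.

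Socs3, the inhibitor that STAT3 induces, fell together with Stat3 and had the lowest mean of the 10 in EpiLC total RNA, both in CPM and per kilobase. It was counted over 1 block of 633 bases (ENSMUSG00000053113.3; chromosome 11, 117967553 to 117968185, minus strand). Total RNA held 18.5, 18.2 and 20.4 CPM in ESCs and 3.8, 3.04 and 3.43 CPM in EpiLCs. RPF held 29.2, 28.9 and 27.2 CPM in ESCs and 6.21, 9.10 and 3.93 CPM in EpiLCs, which are 30, 24 and 21 reads. The groups were far apart, but the EpiLC footprints spread by more than 2-fold among themselves. The mRNA fell by 2.42 ± 0.22 (5.34-fold lower, adjusted p = 5.00e-10, limma) and the footprints fell by 2.31 ± 0.24 (4.96-fold lower, adjusted p = 1.39e-08, limma). Without single libraries the RPF change ranged from -2.54 to -1.99.

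No other SOCS gene was called lower. Over all tested genes 9.7% were called lower in mRNA and 10.6% in RPF, so that this count is no result about the family. Socs3 made up 31.1% to 34.0% of the 8 SOCS and Cish genes per kilobase in ESC total RNA and 5.08% to 6.17% in EpiLC total RNA. In RPF it went from 60.3% to 60.7% down to 13.5% to 26.2%. The family sum in total RNA was 93.7 ± 1.28 CPM per kilobase in ESCs and 94.1 ± 3.29 in EpiLCs (SD, n = 3), so that the loss of Socs3 was matched in size by the other members together. In RPF the sum was 74.2 ± 2.85 in ESCs and 50.3 ± 4.39 in EpiLCs.

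Gab1, the docking protein that brings SHP2 to the receptor, was the more abundant of the 2 adaptors and changed little. The gene (ENSMUSG00000031714.9) was counted over 2133 bases in 11 blocks at 80766329 to 80879558 on the minus strand of chromosome 8. Total RNA held 363, 361 and 369 CPM in ESCs and 297, 280.4 and 288 CPM in EpiLCs. RPF held 653, 722 and 740.4 CPM in ESCs and 574, 556 and 632 CPM in EpiLCs. All EpiLC libraries lay below all ESC libraries, by a small step. Gab1 mRNA was lower by 0.33 ± 0.06 (1.26-fold, adjusted p = 2.83e-05, limma) and RPF by 0.26 ± 0.06 (1.19-fold, adjusted p = 6.85e-04, limma), both inside the fold limit. Gab1 made up at least 98.3% of the 3 Gab genes per kilobase in every library.

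Ptpn11, which encodes the phosphatase SHP2, went up where Gab1 went down. It lies on the minus strand of chromosome 5 (ENSMUSG00000043733.14, 121134757 to 121172072, 1749 counted bases in 14 blocks). In total RNA the values were 109, 121 and 117 CPM in ESCs and 179, 172 and 185 CPM in EpiLCs. In RPF they were 83.3, 90.0 and 80.5 CPM in ESCs and 132, 143 and 142 CPM in EpiLCs. No library of one state reached into the other. Ptpn11 was higher by 0.63 ± 0.06 in mRNA (1.55-fold, adjusted p = 4.74e-09, limma) and by 0.73 ± 0.08 in RPF (1.66-fold, adjusted p = 4.24e-08, limma), short of the fold limit.

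Pim1, Pim3 and Junb were all higher in EpiLCs, against the direction of Stat3 and of Socs3, itself a target. Pim1 and Pim3 encode serine/threonine kinases that promote survival and growth. Pim1 (ENSMUSG00000024014.7; chromosome 17, 29491189 to 29494747, plus strand; 897 counted bases in 6 blocks) stood at 143, 137 and 136 CPM in ESC total RNA and at 257, 229 and 204 CPM in EpiLC total RNA. Its footprints were 225, 227 and 256 CPM in ESCs and 421, 423 and 439.9 CPM in EpiLCs. The groups were apart in both assays. The change was 0.74 ± 0.07 in mRNA (1.67-fold, adjusted p = 3.93e-09, limma) and 0.85 ± 0.08 in RPF (1.81-fold, adjusted p = 6.00e-10, limma), higher by the p-value but inside the fold limit.

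Pim3 was higher as well, with a wider spread. It was counted over 936 bases in 6 blocks on the plus strand of chromosome 15 (ENSMUSG00000035828.10, 88862713 to 88864762). Total RNA held 98.6, 106 and 108 CPM in ESCs and 171, 127 and 152 CPM in EpiLCs. RPF held 109, 111 and 109 CPM in ESCs and 193, 201 and 151 CPM in EpiLCs. The EpiLC libraries were higher than all ESC libraries but spread widely among themselves, with EpiLC RPF replicate 3 the lowest. The change was 0.55 ± 0.09 in mRNA (1.46-fold, adjusted p = 1.20e-05, limma) and 0.69 ± 0.11 in RPF (1.62-fold, adjusted p = 3.97e-06, limma). The coding sequence of Pim3 holds 64.4% G and C, more than 97.1% of tested genes, and with a correction for GC content, added after seeing the data, the changes were 0.21 and 0.30 (adjusted p = 0.0171 and 0.00521).

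The third PIM gene, Pim2, rose far more from a low level, by 2.87 ± 0.22 in mRNA and 3.08 ± 0.21 in RPF (adjusted p = 3.09e-11 and 3.91e-12, limma). Pim2 went from 4.74 ± 1.07 to 34.1 ± 3.10 CPM in total RNA. It remained the least abundant of the 3, at 6.91% to 7.57% of the PIM sum per kilobase in EpiLC total RNA against 1.31% to 2.03% in ESCs. Pim1 led in both states, with 56.1% to 59.3% of PIM mRNA in ESCs and 54.3% to 60.4% in EpiLCs.

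Junb, a component of the transcription factor AP-1 and an immediate early target of many cytokines, had the largest rise of the 10. It was counted over 1 block of 990 bases (ENSMUSG00000052837.6; chromosome 8, 84977395 to 84978384, minus strand). Total RNA held 6.84, 8.66 and 7.53 CPM in ESCs and 24.5, 22.7 and 18.4 CPM in EpiLCs. RPF held 9.98, 9.76 and 8.51 CPM in ESCs, which are 78, 46 and 93 reads, and 44.5, 40.6 and 22.5 CPM in EpiLCs. All EpiLC libraries were above all ESC libraries, and EpiLC RPF replicate 3 stood well below the other two. The mRNA rose by 1.53 ± 0.21 (2.89-fold, adjusted p = 4.57e-07, limma) and the footprints by 1.83 ± 0.24 (3.56-fold, adjusted p = 3.09e-07, limma). Junb too is rich in GC (64.8%), and with the GC correction the changes were 1.18 and 1.42. Its share in the 3 Jun genes per kilobase was 5.68% to 8.49% in ESC and 11.3% to 13.8% in EpiLC total RNA, where Jund led in every library.

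No change of footprints relative to mRNA was called for the 10 genes. Translational efficiency (TE, RPF over total RNA) changed between the states by -0.21 (Lifr) to 0.30 (Junb) on the log2 scale, with adjusted p from 0.539 to 0.956 (limma), and 0 of 10 were called. By the unadjusted p below 0.05 the count was also 0 (1631 of all 11750 genes by limma), and edgeR and DESeq2 called 0 as well. Over all genes 0.136% were called higher and 0.119% lower in TE (0.57% and 0.63% by the adjusted p alone), so that a count of 0 among 10 is no result about these genes. The intervals say how much change remains possible: -0.10 to 0.25 for Gab1, -0.12 to 0.31 for Ptpn11 and -0.37 to 0.06 for Jak1, against -0.57 to 0.78 for Socs3 and -0.34 to 0.95 for Junb, the genes with the fewest reads. The direction of the Stat3 and Socs3 values turned when single libraries were left out. For Lifr and Stat3 the intervals were -0.61 to 0.19 and -0.32 to 0.38, beside RPF changes of -2.80 and -2.29.

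**Figure D3:**
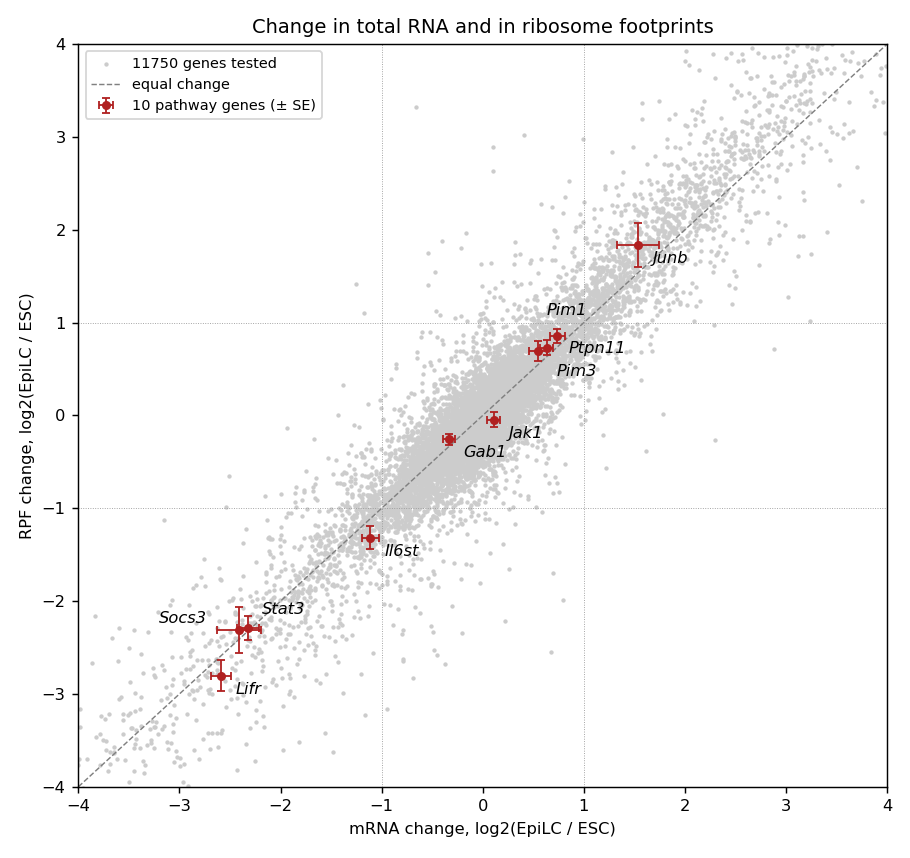
Change of total RNA (x axis) against change of RPF (y axis), both log2 of EpiLC over ESC, for the 10 genes (red, with SE) and all 11750 tested genes (grey, of which 411 lie beyond the axes). The 10 genes lie along the dashed line of equal change, from Lifr at -2.59 and -2.80 to Junb at 1.53 and 1.83.

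Within a state, the genes differed in how many footprints they had per mRNA, and they kept nearly the same order in both. A TE level is a log2 ratio of RPF to total RNA after scaling, so that 0 stands near the middle of all genes. Gab1 had the highest level of the 10, at 0.95 ± 0.06 in ESCs (adjusted p = 1.81e-13, limma), above 90.8% of tested genes, and 1.03 ± 0.06 in EpiLCs (adjusted p = 6.05e-13, limma). Gab1 in EpiLCs was the only level called with the fold limit, which 9.39% of all genes passed upward and 14.4% downward. It lies close to that limit, at 0.985 with scaling to total counts and 0.995 without EpiLC RPF replicate 3. In ESCs 0 of 10 were called, against 7.93% of genes upward and 13.5% downward, and 1 (Gab1, at 1.03) without ESC RPF replicate 1.

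By the adjusted p alone, 4 genes were above 0 and 3 below in ESCs, while 33% of all genes were above and 34.5% below. Pim1 (0.77 ± 0.08), Socs3 (0.57 ± 0.12) and Stat3 (0.54 ± 0.08) stood with Gab1 on the upper side (adjusted p = 1.98e-09, 1.80e-04 and 1.12e-06, limma). On the lower side were both receptor genes and the phosphatase: Lifr at -0.48 ± 0.07, Ptpn11 at -0.46 ± 0.07 and Il6st at -0.25 ± 0.08 (adjusted p = 3.81e-06, 5.28e-06 and 0.00661, limma). In EpiLCs 4 were above and 4 below, against 31.3% and 33% of all genes. Pim1 stood at 0.89 ± 0.07, Junb at 0.58 ± 0.18 and Stat3 at 0.57 ± 0.15 (adjusted p = 1.29e-10, 0.00743 and 0.00188, limma). Lifr stood at -0.69 ± 0.18, Il6st at -0.45 ± 0.13, Ptpn11 at -0.37 ± 0.07 and Jak1 at -0.31 ± 0.08 (adjusted p = 0.00152, 0.00291, 1.32e-04 and 0.00121, limma). Pim1 and Pim3, close relatives by sequence, differed in level, with 0.08 ± 0.10 in ESCs and 0.23 ± 0.10 in EpiLCs for Pim3 (adjusted p = 0.494 and 0.05001, neither below 0.05). The difference between them was not tested.

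**Figure D4:**
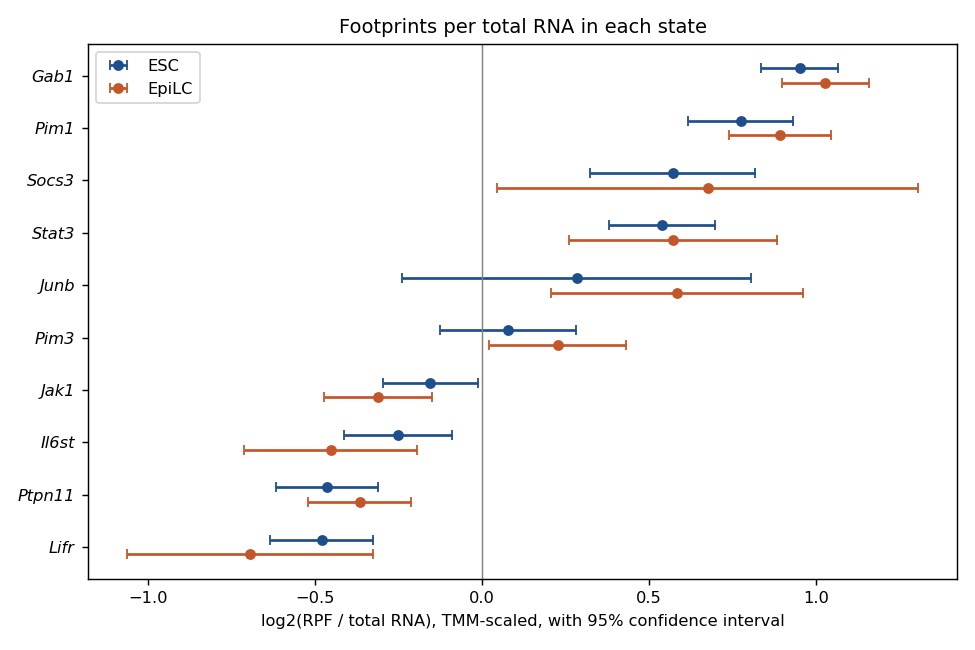
TE level of each gene (x axis, log2 of RPF over total RNA with its 95% confidence interval) in ESCs (blue) and EpiLCs (orange), ordered by the ESC value (y axis). Gab1 and Pim1 are highest and Lifr and Ptpn11 lowest in ESCs, and the interval of each gene overlaps between the states.

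Per kilobase, the order of the 10 genes in total RNA changed as Lifr, Il6st, Stat3 and Socs3 fell. In ESCs it ran from Gab1 (171 ± 2.02 CPM per kilobase) through Pim1 (155 ± 4.23), Pim3 (111 ± 5.13), Ptpn11 (66.1 ± 3.43), Stat3 (52.0 ± 0.608), Lifr (46.1 ± 2.28), Jak1 (41.1 ± 0.862), Il6st (32.5 ± 1.95) and Socs3 (30.1 ± 1.93) to Junb (7.75 ± 0.931; SD, n = 3). Only Il6st and Socs3 overlapped among neighbours. In EpiLCs it ran from Pim1 (256 ± 29.3) through Pim3 (160.0 ± 23.5), Gab1 (135 ± 3.81), Ptpn11 (102 ± 3.58), Jak1 (44.5 ± 1.81), Junb (22.1 ± 3.17), Il6st (15.0 ± 0.732), Stat3 (10.3 ± 0.946) and Lifr (7.43 ± 1.38) to Socs3 (5.40 ± 0.6). Here Pim3 overlapped with Gab1 and Lifr with Socs3. Among all tested genes in total RNA, Stat3 went from the 73.9 to the 30.6 percentile of level, Lifr from 70.8 to 24.3 and Socs3 from 59.1 to 18.6, while Pim1 was at 92.6 and 96.7, Gab1 at 93.6 and 91.4 and Jak1 at 67.7 and 69.7.

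In footprints the order per kilobase in ESCs was Gab1 (330.4 ± 21.7 CPM per kilobase), Pim1 (263 ± 19.4), Pim3 (117 ± 1.19), Stat3 (74.99 ± 8.26), Ptpn11 (48.3 ± 2.80), Socs3 (44.9 ± 1.68), Jak1 (36.8 ± 2.78), Lifr (33.0 ± 0.693), Il6st (27.2 ± 1.36) and Junb (9.51 ± 0.799). Ptpn11 and Socs3 overlapped. In EpiLCs it was Pim1 (477 ± 11.7), Gab1 (275 ± 18.7), Pim3 (194 ± 29.0), Ptpn11 (79.6 ± 3.48), Junb (36.2 ± 11.9), Jak1 (36.1 ± 2.35), Stat3 (15.4 ± 2.66), Il6st (11.3 ± 1.41), Socs3 (10.1 ± 4.10) and Lifr (4.69 ± 0.0393). Junb overlapped with Jak1, and Il6st with Socs3. Stat3 was above Ptpn11 in ESC footprints and below it in ESC total RNA, with no overlap in either.

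The other genes of the pathway were described from 6 lists of 54 genes, all present in the table, of which 41 passed the filter. In total RNA 7 of the 41 rose, 12 fell and 22 were not called, and in RPF 7 rose, 11 fell and 23 were not called, beside 14.6% higher and 9.7% lower over all tested genes in total RNA and 15.4% and 10.6% in RPF. These shares are the background for each list below. Socs1, Cish and Fosl2 met the filter only through EpiLC libraries, and Il6ra and Pramel7 only through ESC libraries. For these genes the filter favoured the direction found, so that their calls are weak support for it. The median change of the 41 was 0.08 in mRNA and -0.13 in RPF. For TE 0 of 41 were called by limma, edgeR and DESeq2, beside 0.136% of all genes called higher and 0.119% lower by limma. An unadjusted p below 0.05 was given to 5, 8 and 6 of the 41. By limma 1631 of all 11750 genes had such a p, so that the limma count is no result about these genes.

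Of 11 cytokines and receptors that use gp130, 8 were below the filter, among them the ligands Lif, Il6, Osm, Ctf1, Clcf1, Cntf and Il11 and the receptor Osmr. Lif itself, named after its values were seen, was at 0.8 ± 0.111 CPM in ESC and 2.14 ± 0.484 CPM in EpiLC total RNA (SD, n = 3; not tested), with 1 to 38 reads a library. Il6 had 0 reads in all 12 libraries, where 3 reads amount to 0.205 to 1.12 CPM. The 3 receptors tested went apart. Il6ra, the receptor of interleukin 6, fell by 1.84 ± 0.41 in mRNA and fell by 2.68 ± 0.52 in RPF (adjusted p = 3.33e-04 and 1.01e-04, limma), from 4.67 ± 0.836 to 1.20 ± 0.663 CPM in total RNA. With an EpiLC mean of 1.22 CPM in RPF, it met the filter only through ESC libraries, which favours a fall. Cntfr, the receptor of ciliary neurotrophic factor, which signals with LIFR and gp130, rose by 2.95 ± 0.21 and 3.54 ± 0.22 (adjusted p = 9.08e-12 and 8.19e-13, limma), from 2.88 ± 0.353 to 22.7 ± 3.75 CPM in total RNA. Il11ra1 was not called.

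Of the 9 other JAKs and STATs, 0 were called higher, where 14.6% of all genes were in mRNA and 15.4% in RPF, so that this count is no result about the list. In mRNA 4 were called lower and in RPF 3 (9.7% and 10.6% of all genes), Jak3 and Tyk2 among them in both assays, and the median change was -0.91 in mRNA and -0.40 in RPF. Of 14 other negative regulators, Socs1 was called higher and Pias2 and Ptpn6 lower in mRNA, while Socs1 and Cish were called higher and Pias2 lower in RPF. Cish, a STAT5 target of the SOCS family, rose by 1.58 ± 0.42 in RPF (adjusted p = 0.00241, limma), from 1.80 ± 0.474 to 6.23 ± 2.57 CPM, with an mRNA change of 0.96 ± 0.41 (adjusted p = 0.0418, limma). Cish and Socs1, at 1.29 and 1.20 CPM in ESC total RNA, met the filter only through EpiLC libraries, which favours a rise. Of 4 adaptors tested, Shc1 was called higher in mRNA and none in RPF. The genes of this paragraph other than Cish were named after their values were seen.

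The list of 8 genes taken as STAT3 targets (Klf4, Klf5, Tfcp2l1, Gbx2, Bcl3, Myc, Pim2 and Pramel7) held the largest falls. In mRNA 5 of 8 were lower and 2 higher (9.7% and 14.6% of all genes), and in RPF 6 were lower and 2 higher (10.6% and 15.4%). Its median change was -2.77 in mRNA and -2.65 in RPF (-2.77 and -2.56 with Pramel7 at its lower bound). Klf4, a naive pluripotency factor, fell by 5.52 ± 0.36 in mRNA and fell by 5.69 ± 0.48 in RPF, from 136 ± 9.68 to 2.85 ± 1.75 CPM in total RNA (adjusted p = 1.06e-12 and 2.03e-10, limma). Tfcp2l1, a STAT3 target that can sustain self-renewal, fell by 5.12 ± 0.24 in mRNA and fell by 5.44 ± 0.32 in RPF, from 494 ± 43.3 to 13.6 ± 7.09 CPM (adjusted p = 2.12e-15 and 2.00e-13, limma). Pramel7 had at most 2 reads in any EpiLC library, so that it was at least 13.7-fold lower in total RNA and at least 5.81-fold lower in RPF, computed against 3 counts in each EpiLC library. It met the filter only through ESC libraries, which favours a fall. Bcl3, an atypical IκB protein, fell by 3.26 ± 0.28 and fell by 2.73 ± 0.31, and Klf5, a Krüppel-like factor of self-renewal, fell by 2.28 ± 0.16 and fell by 2.58 ± 0.11 (adjusted p = 2.31e-10, 4.32e-08, 4.29e-12 and 8.20e-16, limma). The 2 that rose were Pim2 and Myc, the growth regulator, which rose by 3.63 ± 0.38 and 3.82 ± 0.25 (adjusted p = 7.63e-09 and 2.41e-12, limma), from 1.46 ± 0.276 to 18.9 ± 6.25 CPM in total RNA.

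Of the AP-1 genes beside Junb, 3 of 6 were tested and 2 rose. Jun rose by 2.55 ± 0.28 in mRNA and 2.86 ± 0.25 in RPF (adjusted p = 2.05e-08 and 3.95e-10, limma), from 3.32 ± 0.205 to 19.1 ± 2.24 CPM in total RNA. Fosl2 rose by 3.57 ± 0.44 and 4.10 ± 0.49 (adjusted p = 1.33e-07 and 1.05e-07, limma), from 0.576 ± 0.322 to 6.44 ± 1.23 CPM. With an ESC mean of 0.611 CPM in RPF, Fosl2 met the filter only through EpiLC libraries, which favours a rise. Junb, Jun and Fosl2 were thus all higher in EpiLCs in both assays, while Fos was below the filter.

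**Figure D5:**
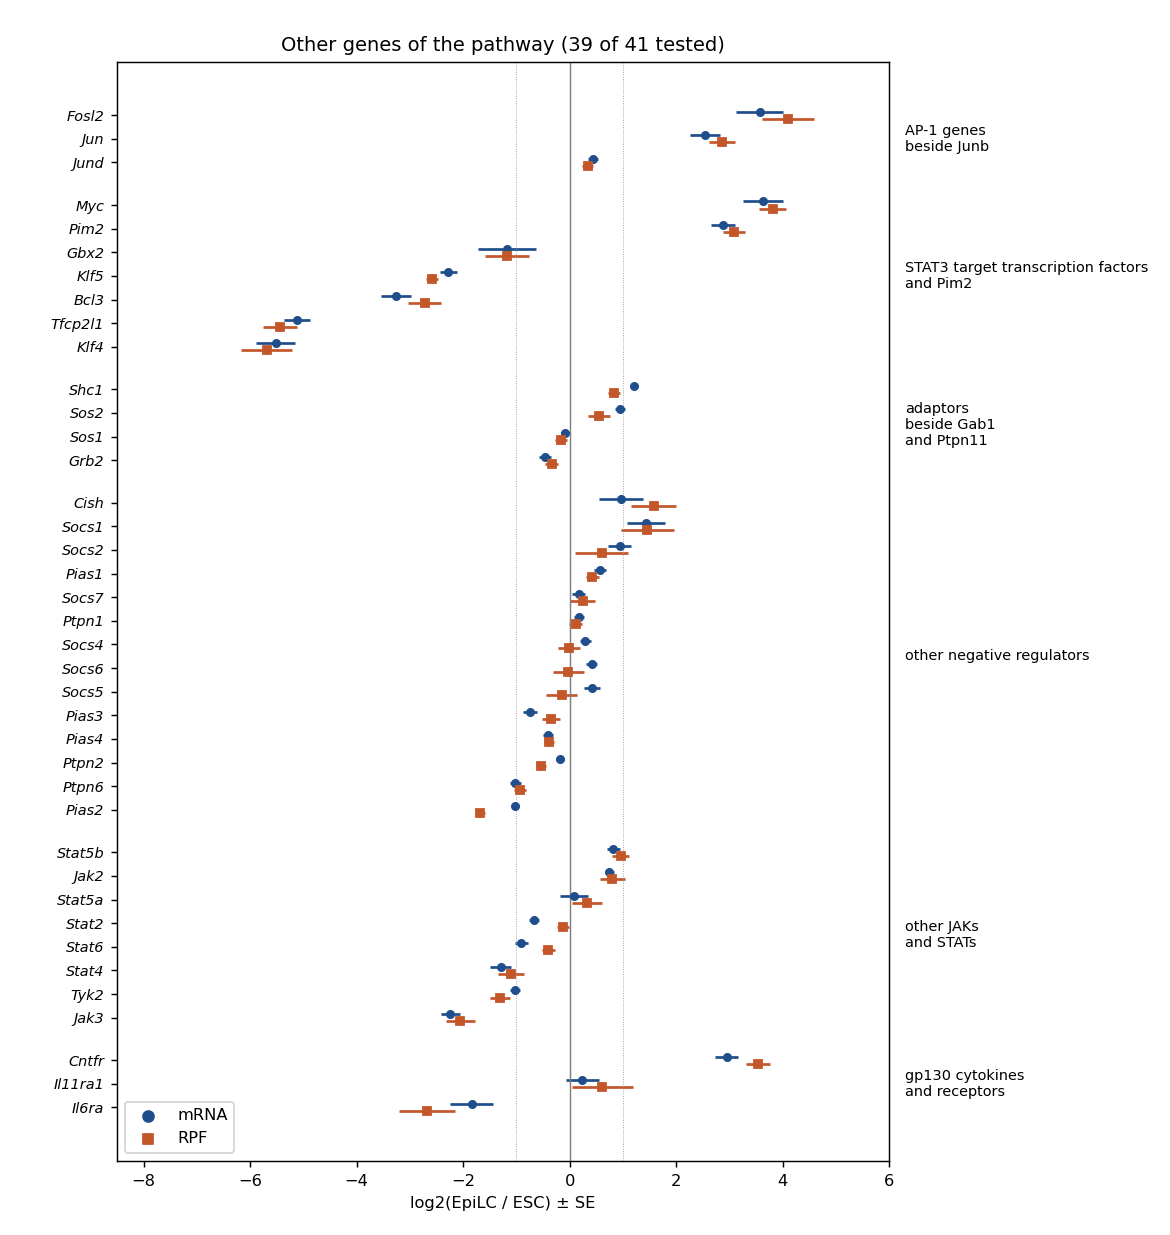
Change of 39 of the 41 other pathway genes tested (y axis, grouped by list) in mRNA (blue circles) and RPF (orange squares) as log2 of EpiLC over ESC with SE (x axis); dotted lines mark the fold limit, and Pramel7 is among those not shown, since only a bound of its fall can be given. Klf4 and Tfcp2l1 lie beyond -5 and Fosl2, Myc and Cntfr near 3 to 4, while most negative regulators lie within the fold limit.

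The genes with the most similar profiles were found by Pearson's r of log2 CPM over the 12 libraries, for the 3 of the 10 genes with the largest mRNA changes. For Lifr they were Rfx2, Zfp710 and Tex14 (r = 0.995 each). For Stat3 they were Zfp57, Cth and Bcat1 (r = 0.997 each), and for Socs3 Gsdmd (r = 0.987), Slc38a7 and Aifm2 (r = 0.986 each). The 12 points fall into 4 groups of 2 states and 2 assays, so that any gene with a like pattern over these groups scores high, whatever the size of its change. Slc38a7, with the smallest change of those named, differed by -0.62 in mRNA and -0.69 in RPF, against -2.42 and -2.31 for Socs3. The values are descriptions without a test.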

How the data were processed

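Ribosome profiling and total RNA libraries of ESCs and EpiLCs (4 groups of 3, grouped and numbered by the sample titles) were analysed. The deposited values are raw counts per gene. Per the labels, the file header and the study's methods, the authors trimmed reads with cutadapt 1.14, kept uniquely mapped reads from STAR 2.5.3a on mm10 with Gencode M14, and counted 5′ ends on the sense strand with featureCounts 1.5.3 over coding sequence without its first 45 nt. How PCR duplicates were treated is not given in the sources used here, so that reads may not be independent molecules and floors cover counting error only. Every column of values was mapped to a sample.

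From these counts, genes with at least 3 CPM in at least 3 libraries were kept (11750 genes), scaled with TMM factors (edgeR 4.0.16) and fitted with voom and limma 3.58.1 in R 4.3.3, as 1 model of the 4 groups with TE as the interaction of assay and state. P-values are 2-sided and adjusted by Benjamini-Hochberg over all 11750 genes. A gene was called, and is written as having risen or fallen, at an adjusted p below 0.05 and an absolute log2 change above 1. The study's methods name limma, the interaction and the CPM filter but not voom or TMM. A fold against a group with at most 3 counts in each library is a lower bound. The filter was met by all 10 genes.

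The 10 genes and the 6 lists were chosen with earlier results of these data known. The rule for named genes took the 10, the called genes of the lists with the 6 largest RPF changes each way, Jak2, Stat5b, Klf4 and Tfcp2l1, and the 3 most similar genes for 3 of the 10; 1 gene that meets it is not reported here. Identifiers matched a symbol for 22385 of 22462 genes. Promoter sequence is from RefSeq (GRCm38.p6), and GC content from Gencode M21 coding sequence (11737 of 11750 genes). Chi-square tests of counts between libraries of a group gave 2.46 to 7.19 per degree of freedom, and each library was kept as its own replicate. The tests were run on simulated counts with log2 changes of 1.5 and 2 in 200 of 11750 genes. In TE, voom and limma recovered 177 and 188 of the 200, with 2 and 3 false calls. In mRNA they recovered 194 and 199, with 0 and 5 false calls. Smaller changes were not simulated. Alternatives (scaling, filters, edgeR, DESeq2, limma-trend, blocks, leaving out each library, GC) are given in the closing section.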

Additional observations from a re-analysis of the deposited data

Results flagged for a closer look

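Of the 10 genes and the 41 other pathway genes tested, 1 differed by limma's adjusted p between total RNA and RPF in its response to the change of state (edgeR also gave 1, and DESeq2 gave 2, the other being Stat2, with a limma TE change of 0.54 and adjusted p = 0.0677). Over all tested genes 1.2% passed limma's adjusted p for TE, so that a count of 1 is no result about these genes as a set. Pias2, which encodes a SUMO ligase of the PIAS family, changed in TE by -0.67 ± 0.11 (log2, SE; adjusted p = 0.00279, limma), inside the fold limit. Its level was 309 ± 16.2 CPM in ESC and 154 ± 5.56 CPM in EpiLC total RNA, and 177 ± 3.03 CPM in ESC and 54.4 ± 5.24 CPM in EpiLC RPF (SD, n = 3). Over all alternatives the value was -0.75 to -0.55, with adjusted p from 5.62e-06 to 0.0218, and it had 1 direction in all of them. Both genes were chosen after their values were seen.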

How the results depend on the processing

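The counts of called genes among the 10 stayed at 1 higher and 4 lower in mRNA and in RPF and at 0 in TE under 2 other scalings, edgeR, DESeq2, limma-trend, 2 other filters, the GC correction and each of 12 fits without a library. The mRNA and RPF counts were the same in separate fits of each assay, which give no TE. Without the fold limit they were 4 higher and 5 lower in mRNA and in RPF. TE levels in ESCs were then 4 above and 3 below 0 and in EpiLCs 4 above and 4 below. With scaling to total counts 0 levels were called in EpiLCs. Without single libraries, 0 to 1 were called in ESCs (1 without ESC RPF replicate 1) and 1 in EpiLCs, which was Socs3 (1.05) in place of Gab1 without EpiLC RPF replicate 3. The TE change of Stat3 ranged from -0.13 to 0.15 and that of Socs3 from -0.087 to 0.46 without single libraries. Stat3 turned negative without ESC RPF replicate 1 or 2, EpiLC RPF replicate 1 or EpiLC total RNA replicate 2, and Socs3 without EpiLC RPF replicate 2, never past the threshold. Junb in RPF ranged from 1.54 to 2.18. The cause was not tested.

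With a replicate block the counts of called genes among the 10 were again 1 higher and 4 lower in mRNA and RPF and 0 in TE. The labels do not say whether the replicate numbers pair the samples, while the study describes its total mRNA as matched to the footprints. Same-numbered libraries had correlations of deviations of -0.182 to 0.163. Libraries of different numbers were not compared in this way, so these values do not settle the pairing. Over all genes, TE calls were 16 higher and 14 lower, against 30 and 23 with the block, 35 and 24 with DESeq2, 67 and 74 without the fold limit, and 13 to 38 higher and 6 to 22 lower without single libraries. Calls in mRNA were 1712 and 1140, against 2685 and 1756 with every gene that had a count (median RPF change of all genes 0.13) and 967 and 628 with at least 10 counts in every library, and in RPF 1815 and 1244 against 1095 and 674 under the latter. The few reads of Socs3 and Junb in EpiLC and ESC RPF limit their TE.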
